A study of Mus musculus with 4 samples.

Results

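The beta cells richest in Glul and Slc40a1 messages were 402 of the 2674 beta-cell barcodes in a pair of single-cell libraries from cultured, TCDD-treated mouse islets. A barcode marks the RNA caught in 1 droplet, and a UMI counts 1 captured transcript molecule. A barcode was taken as a beta cell when it held at least 12000 UMIs, at least 20% of them from Ins1 and Ins2, and under 1% from the other islet hormones Gcg, Sst and Ppy. The members were the 15% of these barcodes with the highest sum of Glul and Slc40a1 CPM (UMIs scaled to the same total in each barcode), taken over both libraries together. The high Glul and Slc40a1 levels were therefore what chose them and are given as a description. The members comprised 108 of 1776 beta barcodes (6.08%, exact binomial 95% interval 5.01% to 7.30%) in the Malat1-null library and 294 of 898 (32.7%, 29.7% to 35.9%) in the wild-type library.

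Glul encodes glutamine synthetase, which joins ammonia to glutamate to make glutamine. Slc40a1 encodes ferroportin, the exporter that carries iron out of cells. Beta cells make and secrete insulin, so a large share of their messages and of their endoplasmic reticulum (ER) is given over to one secreted protein, and genes of protein folding and of the response to misfolded protein are active in them.

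The series profiled islets of C57BL/6 mice, Malat1-/- or wild type, with the 10x Genomics 3′ version 3 kit, and has 1 library for each genotype and treatment. Malat1 is an abundant long non-coding RNA of the nucleus, and TCDD, a dioxin, is a ligand of the aryl hydrocarbon receptor. Islets were freed with collagenase, cultured in RPMI with fetal bovine serum and dispersed with Accutase. The groups used here were the Malat1-/- TCDD islets and the wild-type TCDD islets, both C57BL/6; the solvent (DMSO) libraries were not analysed here, so nothing below measures an effect of TCDD. The labels give neither the dose and time of TCDD, the age of the mice, nor how many mice or islets went into a library, and they call all cells beta cells although whole islets were dispersed. With 1 library per genotype there is no spread between animals and no test. Each difference is given for members against the other beta barcodes of the same library, in both libraries, with 95% intervals that cover counting error only.

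The members expressed the defining beta-cell genes, of which Ins1 and Ins2 were required by the rule for beta barcodes. Their presence and a high insulin share were therefore set in advance and are a description. Ins1, Ins2, Iapp, Nkx6-1, Mafa, Pdx1, Slc2a2 and Ucn3 were all present in members of both libraries, and insulin made up a median of 53.5% of a member's UMIs in the Malat1-null library and 49.7% in the wild-type library. In the other beta barcodes the medians were 58.9% and 51.7% in the same order of libraries. Malat1 was nearly absent from Malat1-null members, with 0.22 CPM, against 8376 CPM in wild-type members. The libraries held 134950186 UMIs (Malat1-null) and 81872519 UMIs (wild type), and no beta barcode sequence occurred in both.

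The level of Glul and Slc40a1 ran without a gap across the threshold. The lowest member had a summed level of 447.4 CPM and the highest other beta barcode 445.8 CPM. A total of 59 members lay within 10% above the lowest member, and 69 other barcodes lay within 10% below it. Glul carried most of the sum, with 94.5% of the Glul and Slc40a1 UMIs in Malat1-null members and 94.1% in wild-type members. Its median per barcode was 518 CPM in Malat1-null members and 120 CPM in the other Malat1-null beta barcodes. In wild type the median was 636 CPM in members and 166 CPM in other beta barcodes. For Slc40a1 the medians were far lower, at 6.04 CPM in members and 0 CPM in others of the Malat1-null library, and at 28.6 CPM in members and 12.1 CPM in others of the wild-type library. Membership by the sum was thus close to membership by Glul alone, which gave 99 of the 108 Malat1-null and 282 of the 294 wild-type members.

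The values of the 2 rule genes are a description, since their sum chose the members. Across beta barcodes the Spearman correlation of Glul and Slc40a1 CPM was 0.16 over 1776 Malat1-null barcodes and 0.28 over 898 wild-type barcodes; both values of a barcode share its total UMI count. Of the members, 26.9% in the Malat1-null library and 34.0% in the wild-type library were also among the highest 15% by Slc40a1 alone, against 10.7% and 15.6% of the other beta barcodes in the same libraries; Slc40a1 is part of the sum, so some of this difference is built in.

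**Figure D1:**
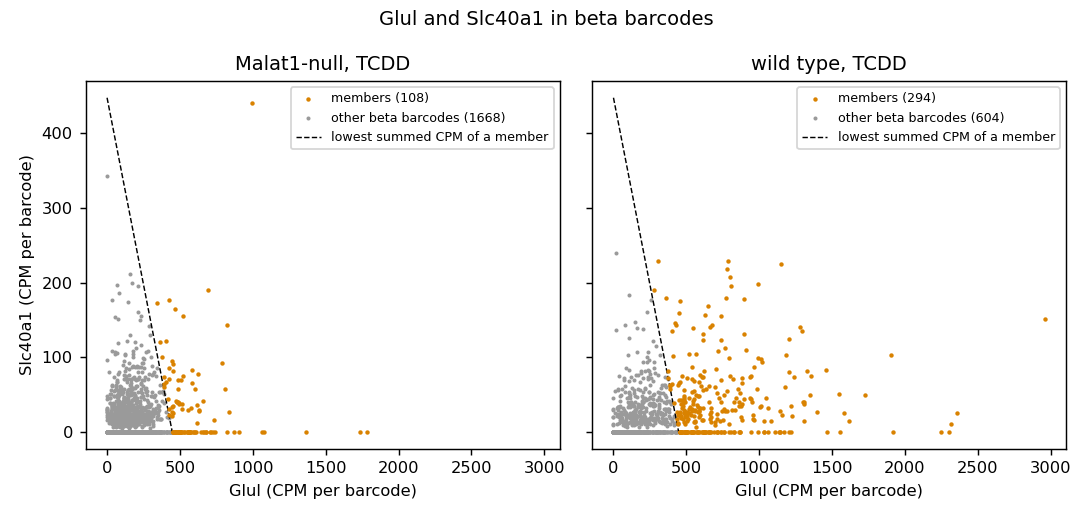
Each point is 1 beta barcode, with its Glul level on the horizontal axis and its Slc40a1 level on the vertical axis (both CPM), in the Malat1-null (left) and wild-type (right) TCDD libraries. The 108 and 294 members lie above and to the right of the dashed line, which marks the lowest summed level of a member at 447.4 CPM, and the points run across that line without a gap.

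Members held fewer UMIs than the other beta barcodes, most clearly in the Malat1-null library. The median was 31883 UMIs per member and 49936 UMIs per other barcode in the Malat1-null library, and 57812 and 65083 UMIs in the wild-type library. With every barcode thinned to 12000 UMIs, members showed more genes, with medians of 2587 genes in members and 2288 in others of the Malat1-null library, and of 2533 in members and 2448 in others of the wild-type library. The share of mitochondrial UMIs was also higher in members, at a median of 1.65% against 1.15% in Malat1-null barcodes and 1.36% against 1.12% in wild-type barcodes. The part of depth, insulin share and mitochondrial share in the gene differences below was not tested beyond the alternatives given with each.

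Few genes separated members from other beta barcodes by a wide margin in both libraries. A ribonuclease gene, Rnase4, and a cytoskeleton gene, Tacc2, were higher, and 11 genes were lower, among them the ER genes Sdf2l1 and Manf and the serine synthesis genes Psph and Phgdh. A gene was counted when it reached 20 CPM in members or others of each library and differed 1.5-fold, with its interval beyond 1.2-fold, in the same direction in both libraries. Levels are CPM after TMM scaling, which sets the 4 sums (members and others of each library) on a common footing. Of 3907 genes compared, 2 were higher in members of both libraries (0.0512%) and 11 were lower (0.282%). Within the Malat1-null library alone 8 of 4203 genes were higher (0.19%) and 64 lower (1.52%), and within the wild-type library 13 of 4084 were higher (0.318%) and 47 lower (1.15%). The split depended on scaling: scaling by total UMIs gave 12 higher and 4 lower genes, and scaling by UMIs other than hormone, mitochondrial and Malat1 ones gave 4 higher and 5 lower. The median over all compared genes was -0.09 (log2) in Malat1-null and -0.01 in wild-type barcodes under TMM, and 0.28 and 0.07 under total-UMI scaling, so gene lists below are also read relative to that median.

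The libraries overlapped in the genes they counted. Of the 28 compared genes lower in wild-type members, 11 (39.3%) were also lower in Malat1-null members, where 1.48% of all compared genes were. These 11 were 19% of the 58 lower in Malat1-null members. Of the 11 genes higher in wild-type members, 2 (18.2%) were higher in Malat1-null members, where 0.154% of all compared genes were; they were 33.3% of the 6 higher there.

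**Figure D2:**
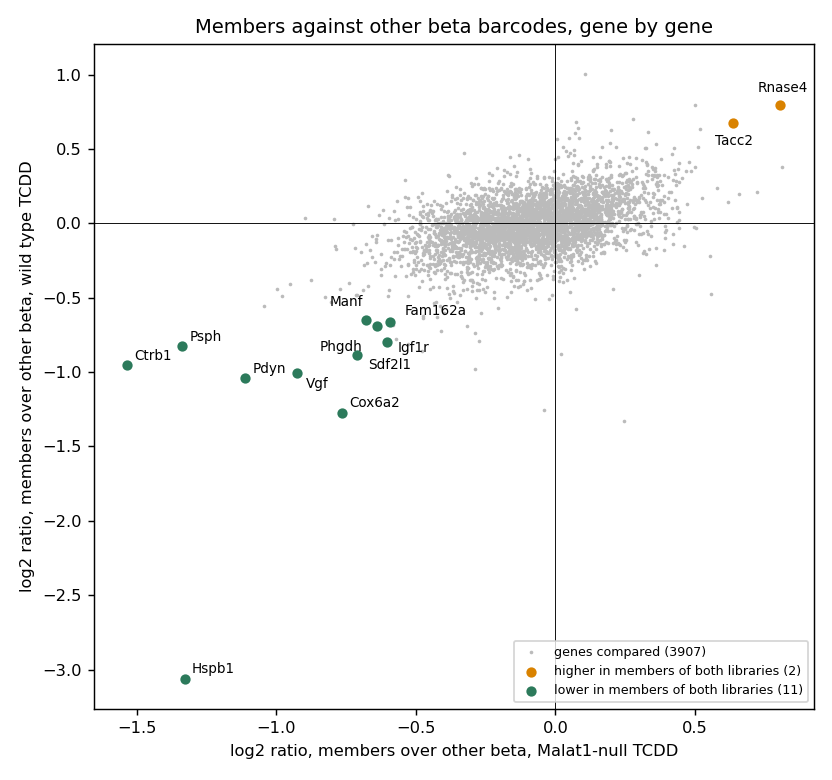
Each point is 1 of 3907 genes, with its log2 ratio of members over other beta barcodes in the Malat1-null library on the horizontal axis and in the wild-type library on the vertical axis. The 2 genes higher in members of both libraries (Rnase4, Tacc2) lie at the upper right and the 11 lower genes at the lower left, apart from most other genes.

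Rnase4, the first of the 2 higher genes, encodes a secreted ribonuclease of the RNase A family. Its summed level was 1061 CPM in Malat1-null members and 608 CPM in the other Malat1-null beta barcodes, a ratio of 1.75 (1.69 to 1.80). In wild type it was 471 CPM in members and 271 CPM in others, a ratio of 1.74 (1.69 to 1.79). The shift was seen in single barcodes as well as in the sums, although single barcodes are scaled by total UMIs and the sums by TMM. The median barcode had 1106 CPM among Malat1-null members (10th to 90th percentile 323 to 2579) against 433 CPM among the others (125 to 1311). In wild type the median was 428 CPM in members (163 to 1086) against 214 CPM in others (42.1 to 542). The distributions overlapped widely in both libraries. For a counted gene, some of the 19 alternative settings were settled by the main result. No CPM minimum and a looser fold minimum could not drop it. The 50 CPM and 2-fold minimums followed from its level and ratio. Rnase4 remained counted in both libraries in 16 of 19 alternative settings. It was not when members were chosen by Slc40a1 alone (log2 ratios 0.39 and 0.33 in Malat1-null and wild type), when other barcodes were matched to members on UMIs (0.46 and 0.85), or at a 2-fold minimum.

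Rnase4 and Ang, which encodes the related ribonuclease angiogenin, overlap on chromosome 14 (Rnase4 spans chr14:51091077-51106151, plus strand, in GENCODE M21), and RefSeq gives both a transcript with the same start. Reads of the overlapping part cannot be told apart between them unless the counting separated their 3′ ends. Ang had 104 CPM in Malat1-null members and 86.1 CPM in the other Malat1-null beta barcodes (log2 ratio 0.28), and 172 CPM in wild-type members and 105 CPM in wild-type others (log2 ratio 0.70); it was counted in wild type only, and the difference between the libraries was not tested. The 250 bases before their common start (RefSeq, GRCm38.p6, chr14:51090827-51091076, plus strand) are shown because both genes were higher in members.
Rnase4 and Ang: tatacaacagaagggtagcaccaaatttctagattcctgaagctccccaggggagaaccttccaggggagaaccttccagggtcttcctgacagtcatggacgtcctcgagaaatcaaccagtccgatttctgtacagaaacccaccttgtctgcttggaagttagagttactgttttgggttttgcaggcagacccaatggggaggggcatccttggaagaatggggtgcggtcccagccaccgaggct

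Tacc2 encodes a centrosome and microtubule-binding protein. It stood at 101 CPM in Malat1-null members and 65.2 CPM in the other Malat1-null beta barcodes (ratio 1.55, 1.41 to 1.71). In wild type it stood at 122 CPM in members and 76.8 CPM in others (ratio 1.59, 1.51 to 1.68). Its log2 ratio stayed above 0 in every alternative run, between 0.36 and 1.00 in Malat1-null and between 0.46 and 0.75 in wild-type barcodes, but it kept the 1.5-fold mark in both libraries in 12 of 19.

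Glp1r, the receptor for the incretin GLP-1, is named although it was chosen after its values were seen. It had 373 CPM in Malat1-null members against 321 CPM in others, and 344 CPM in wild-type members against 241 CPM in others, ratios of 1.16 and 1.42.

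Relative to all genes, members had less RNA of the ER folding machinery. This list of chaperones and unfolded-protein-response genes held 27 measured genes, of which 24 were lower in Malat1-null members and all 27 were lower in wild-type members, whatever the size of the difference. Of all compared genes, 34.7% were above 0 in Malat1-null members and 47.7% in wild-type members, so most genes lay below 0 in both libraries, and such counts for this and the following lists are read beside those shares. The median log2 ratio was -0.30 in Malat1-null and -0.32 in wild-type barcodes, beside medians of -0.09 and -0.01 over all compared genes. Relative to all genes the list stood at -0.21 and -0.31 under TMM. Both other scalings gave the same relative values because a scaling moves all genes of a library alike, so they are no check. On the same measure the list stood at -0.15 and -0.28 with others matched on UMIs and at -0.25 and -0.33 with all barcodes thinned. It stood at -0.30 and -0.20 without barcodes high in Pdyn, metallothionein or Hspa1a genes. The Hspa1a part of that setting was not limited to high barcodes. It dropped every wild-type barcode with any Hspa1a or Hspa1b UMI and some Malat1-null barcodes without any. Taken on its own, the Malat1-null median was 0.07 under total-UMI scaling. Only 2 of its genes, Sdf2l1 and Manf, were counted as lower in both libraries.

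Sdf2l1 takes part in protein folding as a partner of the chaperone BiP. It had 48.9 CPM in Malat1-null members and 80.2 CPM in the other Malat1-null beta barcodes (ratio 0.61, 0.53 to 0.70), and 41.5 CPM in wild-type members and 76.6 CPM in wild-type others (ratio 0.54, 0.50 to 0.59). Manf encodes a factor induced by ER stress that protects cells, and beta cells among them. It had 138 CPM in Malat1-null members and 222 CPM in others (ratio 0.62, 0.57 to 0.68), and 134 CPM in wild-type members and 211 CPM in others (ratio 0.64, 0.61 to 0.67). Both genes were lower by similar factors in the 2 genotypes, but neither kept the 1.5-fold mark in both libraries under the other 2 scalings. Of 19 alternative settings, Sdf2l1 stayed counted in 16 and Manf in 10.

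The most abundant chaperones moved the same way by less or just short of the rule. Hspa5, which encodes BiP, had 518 CPM in Malat1-null members and 776 CPM in others (ratio 0.67, 0.64 to 0.70). In wild type it had 390 CPM in members and 626 CPM in others (ratio 0.62, 0.61 to 0.64). Hsp90b1, the ER form of Hsp90, had ratios of 0.77 (0.74 to 0.80) in Malat1-null and 0.70 (0.69 to 0.72) in wild-type barcodes. The lectin chaperones Calr and Canx differed less, with log2 ratios of -0.01 and 0.10 in Malat1-null and of -0.36 and -0.06 in wild-type barcodes.

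Of the 27 ER genes, 22 had a promoter window in RefSeq (250 bases before to 50 after the start), and 7 of these windows held the ER stress element, the sequence bound by the factors NF-Y and ATF6. The motif searched was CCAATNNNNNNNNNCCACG on both strands; it occurred in 39 of 32851 windows (0.119%), or in 37 of 27025 genes (0.137%). The other 15 windows did not hold these letters. One site is shown for each of 6 of the genes, to set the element beside their values; Hsp90b1 has a second site, and Dnajc3, the seventh gene, is left out because the end of its window was not found in a transcript. Capitals mark the motif, and sequences read along the strand that matches it (RefSeq, GRCm38.p6); a match is a description of the sequence, not of binding. The windows lie at chr2:34771840-34772139 (Hspa5, plus strand), chr10:86705395-86705694 (Hsp90b1, minus), chr12:17266339-17266638 (Pdia6, plus), chr15:88819396-88819695 (Creld2, plus), chr8:84846882-84847181 (Calr, minus) and chr11:50325624-50325923 (Canx, minus), and the search was made after the values were seen.
Hspa5: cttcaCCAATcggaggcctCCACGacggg
Hsp90b1: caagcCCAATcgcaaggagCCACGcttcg
Pdia6: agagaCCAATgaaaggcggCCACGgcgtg
Creld2: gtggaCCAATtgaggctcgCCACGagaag
Calr: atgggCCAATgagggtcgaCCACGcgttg
Canx: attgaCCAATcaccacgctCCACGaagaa
These 6 genes did not move alike: Creld2 had log2 ratios of -0.48 in Malat1-null and -0.86 in wild-type barcodes and Pdia6 of -0.47 and -0.62. Of the lectin chaperones with the same element, Calr differed little in Malat1-null but was lower in wild-type members. Canx differed little in both libraries, with the values given above.

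Genes driven by ATF4, the factor of the amino-acid and ER stress response, were also mostly lower under TMM scaling. Of 20 measured genes 16 were lower in Malat1-null members and 19 in wild-type members, with median log2 ratios of -0.28 and -0.36. Relative to all genes these were -0.19 and -0.35, and -0.08 and -0.32 with others matched on UMIs; the Malat1-null median itself was 0.08 under total-UMI scaling. Phgdh alone was counted as lower in both libraries. The pro-apoptotic factor Ddit3 (CHOP) had 113 CPM in Malat1-null members and 140 CPM in others (log2 ratio -0.32), and 73.9 CPM in wild-type members and 119 CPM in others (log2 ratio -0.69).

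In the amino-acid pathways next to glutamine synthetase, the serine branch was lower. Phgdh catalyses the first step of serine synthesis from a glycolytic intermediate and Psph the last. Psph had 14.9 CPM in Malat1-null members and 37.9 CPM in others (ratio 0.39, 0.30 to 0.50), and 16.2 CPM in wild-type members and 28.7 CPM in others (ratio 0.56, 0.50 to 0.64). Phgdh had 32.4 CPM in Malat1-null members and 50.7 CPM in others (ratio 0.64, 0.54 to 0.76), and 24.2 CPM in wild-type members and 39.0 CPM in others (ratio 0.62, 0.56 to 0.69). Psat1, the enzyme between them, was under 20 CPM throughout, with log2 ratios of -0.81 and -0.47. Psph stayed counted in 17 of 19 alternative settings and Phgdh in 8.

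The glutamine and glutamate list as a whole, with Glul left out, had 12 measured genes, 11 of them lower in Malat1-null and 10 in wild-type members, and medians of -0.27 and -0.26 (log2); Psph and Phgdh were the 2 counted. Relative to all genes the medians were -0.18 in Malat1-null and -0.25 in wild-type barcodes, but -0.055 and -0.23 with others matched on UMIs and -0.063 and -0.19 with all barcodes thinned. Under total-UMI scaling the Malat1-null median was 0.11. Glud1, which interconverts glutamate and 2-oxoglutarate, had log2 ratios of 0.20 in Malat1-null and 0.15 in wild-type barcodes, and the asparagine synthetase gene Asns had -0.22 and -0.31.

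Iron genes gave no such pattern. None of the 12 measured genes of iron storage, uptake and regulation was counted in either library, and their median log2 ratios were -0.07 in Malat1-null and -0.03 in wild-type barcodes. The ferritin heavy chain gene Fth1 had 684 CPM in Malat1-null members and 899 CPM in others, and 731 CPM in wild-type members and 765 CPM in others. The transferrin receptor gene Tfrc had 33.1 CPM in Malat1-null members and 36.6 CPM in others, and 29.6 CPM in wild-type members and 38.6 CPM in others.

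**Figure D3:**
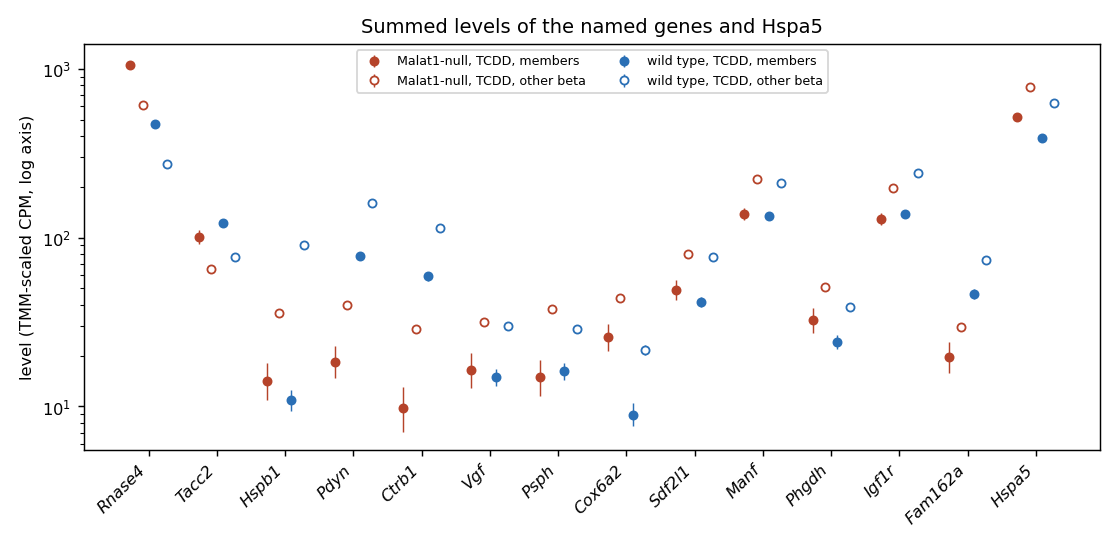
Summed levels (TMM-scaled CPM, log axis) of the 13 genes counted in both libraries and of Hspa5, in members (filled) and other beta barcodes (open) of the Malat1-null (red) and wild-type (blue) TCDD libraries; bars are exact Poisson 95% intervals. Filled points lie above open ones for Rnase4 and Tacc2 and below them for the other 12 genes.

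The remaining 7 lower genes were Pdyn, Vgf, Igf1r, Cox6a2, Fam162a, Hspb1 and Ctrb1. Pdyn encodes the precursor of the dynorphin peptides. It had 18.4 CPM in Malat1-null members and 40.1 CPM in others (ratio 0.46, 0.37 to 0.57), and 77.8 CPM in wild-type members and 160 CPM in others (ratio 0.49, 0.46 to 0.51). Vgf, the precursor of secreted neuropeptides stored in dense granules, had 16.4 CPM in Malat1-null members and 31.4 CPM in others (ratio 0.52, 0.41 to 0.66), and 14.9 CPM in wild-type members and 30.0 CPM in others (ratio 0.50, 0.43 to 0.57). Both were lower in members by about the same factor in each genotype, although the level of Pdyn itself was higher in wild-type than in Malat1-null barcodes.

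Igf1r, the receptor for insulin-like growth factor, had 130 CPM in Malat1-null members and 198 CPM in others (ratio 0.66, 0.60 to 0.71), and 139 CPM in wild-type members and 240 CPM in others (ratio 0.58, 0.55 to 0.60). Cox6a2, the muscle-type subunit of cytochrome c oxidase, had 25.8 CPM in Malat1-null members and 44.0 CPM in others (ratio 0.59, 0.48 to 0.71), and 8.96 CPM in wild-type members and 21.7 CPM in others (ratio 0.41, 0.35 to 0.49). Fam162a, a hypoxia-induced mitochondrial protein gene, had ratios of 0.66 and 0.63. Of 19 alternative settings, Fam162a was counted in only 4, Igf1r in 8, Cox6a2 in 10, Vgf in 14 and Pdyn in 17. The 4 for Fam162a include no CPM minimum and the looser fold minimum, which could not drop a counted gene. In the Malat1-null library the median barcode differed less than the sums for Igf1r, Pdyn and Cox6a2. The medians are CPM by the total UMIs of a barcode, while the sums are TMM-scaled. The Malat1-null median over all genes was -0.09 under TMM and 0.28 under total-UMI scaling (log2). The part of scaling in this gap was not tested. The median Igf1r level was 108 CPM in Malat1-null members and 113 CPM in others, and 78.8 and 134 CPM in wild type. Pdyn had medians of 0 CPM in members and others of the Malat1-null library, and 18.9 and 25.7 CPM in wild type. For Cox6a2 the medians were 0 CPM in members and others of both libraries.

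For Hspb1 and Ctrb1 a few barcodes held much of the UMIs. The small heat-shock protein gene Hspb1 had 14.2 CPM in Malat1-null members and 36.0 CPM in others (ratio 0.39, 0.30 to 0.51), and 10.9 CPM in wild-type members and 91.0 CPM in others (ratio 0.12, 0.10 to 0.14). The 10 highest barcodes held 58.5% of its UMIs in the Malat1-null others and 36.9% in the wild-type others. Over the alternatives its log2 ratio ranged between -1.53 and 0.13 in Malat1-null barcodes, the highest when the top 25% were taken as members, and between -3.45 and -1.23 in wild-type barcodes. Ctrb1, the chymotrypsinogen gene of acinar cells, had 9.78 CPM in Malat1-null members and 28.7 CPM in others, and 59.2 CPM in wild-type members and 115 CPM in others. A single barcode held 66.1% of the Ctrb1 UMIs of the Malat1-null others and 36.2% of those of the wild-type others. Without barcodes in which markers of other cell types reached 0.1% of UMIs, its log2 ratio was -0.44 in Malat1-null and -0.30 in wild-type barcodes, short of the rule.

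Hspa1a, an inducible Hsp70 gene chosen after its values were seen, was much lower in wild-type members. It had 1.45 CPM in wild-type members and 105 CPM in wild-type others, from 27 and 4241 UMIs. In the Malat1-null library it had 1.33 CPM in members and 8.6 CPM in others, from 6 and 708 UMIs. The highest 10 of the 604 wild-type others held 64.3% of their Hspa1a UMIs. Over the 12 measured heat-shock chaperones the median log2 ratio was -0.15 in Malat1-null and -0.31 in wild-type barcodes, and Hspb1 alone was counted as lower in both. The Malat1-null median was 0.22 under total-UMI scaling. Relative to all genes the heat-shock list stood at -0.06 in Malat1-null and -0.30 in wild type. In the same order it stood at -0.01 and -0.44 with others matched on UMIs and at -0.12 and -0.44 with barcodes thinned. Without barcodes high in Pdyn, metallothionein or Hspa1a genes it stood at 0.0008 and -0.07. The 7 measured hypoxia-induced genes had medians of -0.27 and -0.45, with Fam162a counted in both. With barcodes high in Pdyn, metallothionein or Hspa1a genes left out, the hypoxia list stood at -0.09 and -0.07 relative to all genes. As given above, that setting also dropped some Malat1-null barcodes without any Hspa1a or Hspa1b UMI. With barcodes thinned the Malat1-null value of the hypoxia list was 0.18.

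Mitochondrially encoded messages were higher in members. All 12 measured genes were above 0 in both libraries, at medians of 0.20 (log2) in Malat1-null and 0.30 in wild-type barcodes, and none reached 1.5-fold. The cytochrome c oxidase subunit gene mt-Co1 had 3061 CPM in Malat1-null members and 2530 CPM in others (ratio 1.21, 1.19 to 1.23), and 3036 CPM in wild-type members and 2563 CPM in others (ratio 1.18, 1.172 to 1.197). Relative to all genes the list kept its direction with others matched on UMIs, at 0.06 in Malat1-null and 0.28 in wild-type barcodes. These messages come from 1 source, so they are not independent of each other. A high mitochondrial share is also a usual sign of RNA quality, and its part in the other differences was not tested.

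The nuclear genes of the same respiratory chain went the other way in the Malat1-null library and slightly the same way in wild type. Of 83 measured, 80 were lower in Malat1-null members (median -0.27) and 60 were higher in wild-type members (median 0.05), and only Cox6a2 was counted as lower in both. Ribosomal protein genes had medians of -0.30 in Malat1-null and -0.07 in wild-type barcodes over 77 genes. Relative to all genes the nuclear respiratory genes stood at -0.18 in Malat1-null and 0.06 in wild-type barcodes, and at -0.05 and 0.09 with others matched on UMIs. The ribosomal protein genes stood at -0.21 and -0.06 relative to all genes. Total-UMI scaling moves all genes of a library alike, so apart from the 20 CPM minimum it could not change these relative values.

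**Figure D4:**
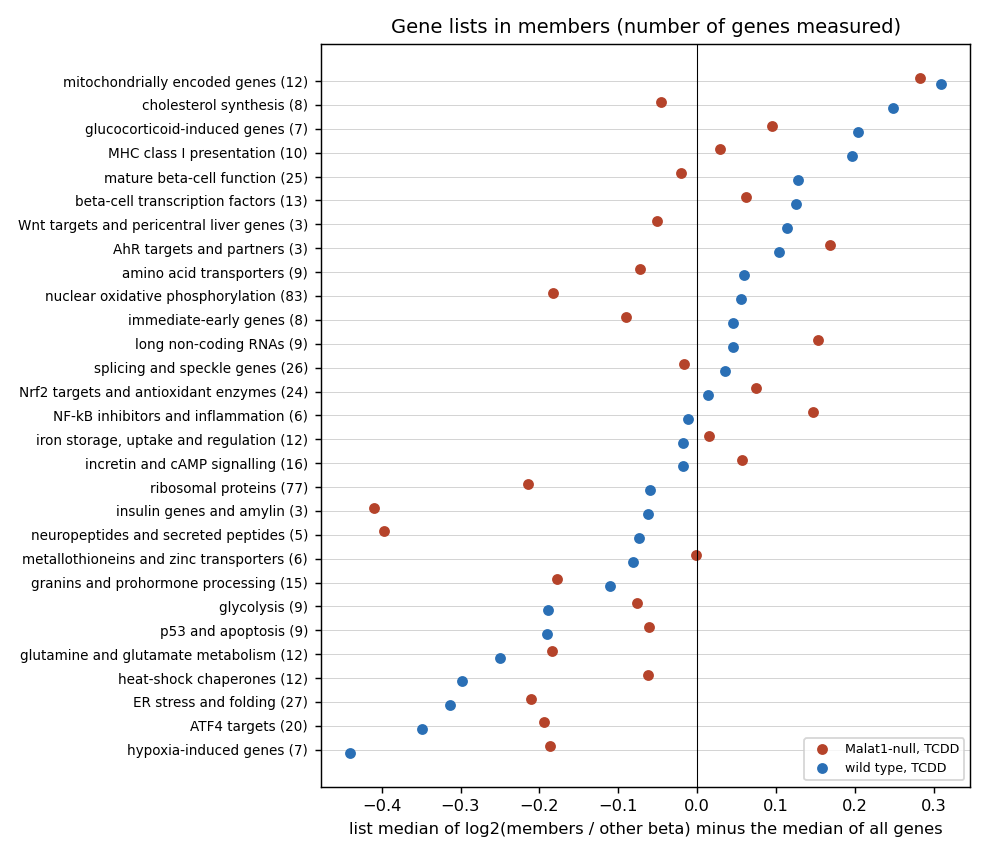
For each gene list (number of measured genes in brackets), the median log2 ratio of members over other beta barcodes minus the median over all 3907 compared genes, in the Malat1-null (red) and wild-type (blue) TCDD libraries. ER, ATF4, hypoxia, heat-shock and glutamine lists lie left of 0 in both libraries and the mitochondrially encoded genes lie right of 0 in both, with list medians relative to all genes between -0.44 and 0.31 over these lists.

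Beta-cell identity genes differed little between members and the rest. Among 13 measured beta-cell transcription factors and 25 genes of mature beta-cell function, none was counted in both libraries, with median log2 ratios of -0.03 and -0.11 in Malat1-null and of 0.12 and 0.12 in wild-type barcodes. Mafa, an activator of insulin transcription, had 247 CPM in Malat1-null members and 307 CPM in others, and 134 CPM in wild-type members and 161 CPM in others. Insulin messages were lower in Malat1-null members under TMM scaling, with ratios of 0.71 for Ins1 and 0.69 for Ins2, against 0.95 and 0.89 in wild type. The size depended on scaling: the Malat1-null median log2 ratio of the insulin and amylin genes was -0.50 under TMM and -0.13 under total-UMI scaling. The granin and prohormone-processing list had medians of -0.26 in Malat1-null and -0.12 in wild-type barcodes, with Vgf alone counted in both, and a Malat1-null median of 0.10 under total-UMI scaling.

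Rnase4, Tacc2 and Glp1r ran in gradients across the whole range of Glul and Slc40a1. When the beta barcodes of each library were divided into 10 equal bins by the summed level, and CPM was taken over UMIs other than hormone, mitochondrial and Malat1 ones, Rnase4 stood at 2691 CPM in the highest bin and 793 CPM in the lowest bin of the Malat1-null library, a ratio of 3.39 (3.24 to 3.56). In wild type it stood at 1265 CPM in the highest bin and 279 CPM in the lowest, a ratio of 4.53 (4.14 to 4.96). It was higher than in the bin before in 9 of 9 steps in Malat1-null and in 8 of 9 in wild-type barcodes, where bin 9 was the highest at 1314 CPM. Tacc2 followed with ratios of 2.63 and 2.59, and Glp1r with 2.05 and 3.14.

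The folding genes ran the other way. Hspa5, which differed mainly at the low end, stood at 1370 CPM in bin 10, 1791 CPM in bin 5 and 4672 CPM in bin 1 of the Malat1-null library, and at 931, 1163 and 3083 in the same bins of the wild-type library. Manf, which was graded across the range, stood at 378, 560 and 815 CPM in bins 10, 5 and 1 of the Malat1-null library and at 317, 413 and 891 in the wild-type ones. The beta barcodes with the least Glul and Slc40a1 thus had the most of these messages. The ratio of the highest over the lowest bin was 0.24 for Sdf2l1 in Malat1-null and 0.27 in wild type, and 0.32 and 0.38 for Psph. Median UMIs were 34920 in the highest and 47467 in the lowest Malat1-null bin, and 53564 and 58223 in the wild-type ones. The bins were chosen after other values were seen. The score of a barcode and its other CPM values share its total UMIs, and the part of this in the gradients was not tested.

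**Figure D5:**
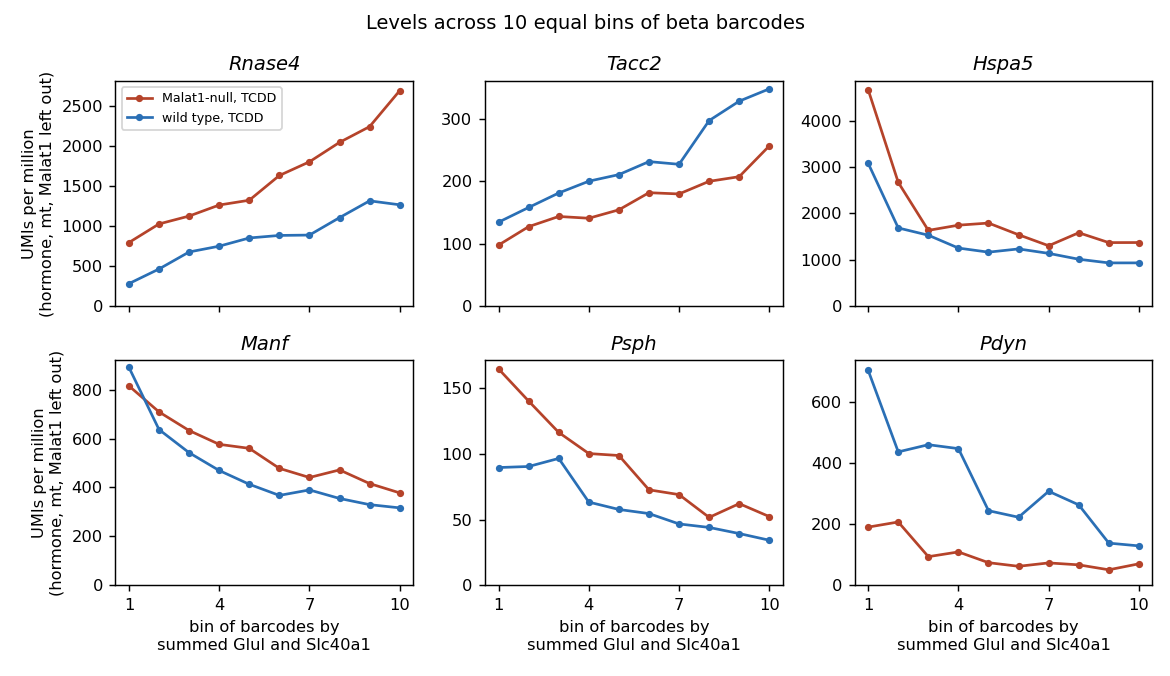
Levels of 6 genes (CPM, with hormone, mitochondrial and Malat1 UMIs left out of the total) across bins of beta barcodes ordered from the lowest (1) to the highest (10) summed Glul and Slc40a1 level, in the Malat1-null (red) and wild-type (blue) TCDD libraries. Rnase4 and Tacc2 are highest in bins 9 or 10, and Hspa5, Manf and Pdyn are highest in bins 1 or 2, with Hspa5 at 4672 and 3083 CPM in the lowest bins.

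Members overlapped unevenly with other beta-cell states, each taken as the highest 15% of all beta barcodes by the summed CPM of its leading genes. The state led by Rnase4 and by Mlxipl, which encodes the glucose-responsive factor ChREBP, held 55.6% (45.7% to 65.1%) of members and 17.1% (15.31% to 18.98%) of others in the Malat1-null library. In wild type it held 14.3% (10.5% to 18.8%) of members and 2.48% (1.40% to 4.06%) of others. With barcodes thinned to 12000 UMIs, and members chosen again, the shares were 43.7% and 17.5% in Malat1-null and 12.3% and 3.45% in wild type. Rnase4 is itself one of its leading genes, so this is the same observation as above, seen per barcode.

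The other states followed no single direction. The Pdyn, Serpina7 and Bnip3 state held 5.56% of members and 7.67% of others in Malat1-null, and 24.1% of members and 32.6% of others in wild type. The heat-shock state (Hspa1a, Hspa1b) held 13.9% of members and 22.5% of others in wild type. There it took in every barcode with any UMI of these genes, so the shares are detection rates that depend on depth. With barcodes thinned and members chosen again, the wild-type shares were 3.46% of members and 10.7% of others. In Malat1-null the unthinned state held 7.41% of members and 13.0% of others, but these shares cannot be read as heat-shock barcodes. The 108 Malat1-null members held only 6 Hspa1a UMIs, 2 of them in the same barcode, and 2 Hspa1b UMIs. These were too few for the 8 members counted, so the state took in barcodes without any. After thinning it took in 15.7% of the same 108 members. The thinned Malat1-null shares, 18.3% of members and of others, therefore decide nothing about heat-shock barcodes. The metallothionein state (Mt1, Mt2) held 12.0% of members and 6.35% of others in Malat1-null, and 28.6% of members and 32.9% of others in wild type. The Slc2a2, Ucn3 and Ppp1r1a state held 12.0% of members and 21.6% of others in Malat1-null, and 4.08% and 2.81% in wild type. For the Gem, Nfkbia and Cebpd state the shares were 23.1% of members and 16.9% of others in Malat1-null and 10.5% and 10.6% in wild type, and for the Fos state they were 7.41% and 5.70% in Malat1-null and 37.8% and 31.1% in wild type. The Rnase4 and Mlxipl state and the Fos state held larger shares of members than of others in both libraries. For the first this was partly settled in advance, since Rnase4 was already higher in these members. After thinning, with members chosen again, the Fos state held 8.45% of members and 7.83% of others in Malat1-null. In wild type it then held 30.0% of members and 28.8% of others.

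Markers of macrophages and endothelial cells were not higher in members. Glul is strongly expressed in glial and some endothelial cells and Slc40a1 in macrophages, so the markers of these cells were read in the members. The 10 macrophage markers summed to 27.3 CPM in Malat1-null members and 42.6 CPM in others, and to 30.1 CPM in wild-type members and 32.2 CPM in others, most of it C1qa. The defining macrophage genes C1qb, C1qc, Lyz2 and Adgre1 were at 0 in members of both libraries. The 7 endothelial markers summed to 1.78 CPM in Malat1-null members and 3.28 CPM in others, and to 2.41 CPM in wild-type members and 12.9 CPM in others, with Cdh5 and Cldn5 at 0 in members of both. The 5 Schwann-cell markers summed to 6.67 CPM in Malat1-null members and 6.57 CPM in others, and to 8.04 CPM in wild-type members and 7.62 CPM in others, with Sox10 and Cdh19 at 0 in members and others of both libraries. Of the 4 markers of PP cells, the sum was 491 CPM in Malat1-null members and 431 CPM in others, and 94.4 CPM in wild-type members and 181 CPM in others; 1 barcode held 68.7% of the UMIs of Pyy in Malat1-null members.

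Genotype and library cannot be told apart in the share of members. The Malat1-null share was 6.08% and the wild-type share 32.7% under 1 common threshold, and 8.0% and 29.0% after thinning to 12000 UMIs. Within members, 75 of 4027 genes were counted as higher (1.86%) and 158 as lower (3.92%) in Malat1-null than in wild type under TMM scaling. In the other beta barcodes 83 were higher (2.06%) and 68 lower (1.69%), and in members and others alike 32 were higher (0.795%) and 55 lower (1.37%). Under total-UMI scaling 125 of 3911 genes were higher and 89 lower in members, and 39 were higher and 130 lower in the other beta barcodes, so the direction of the balance depended on scaling. Pdyn was 0.24-fold (0.19 to 0.30) in Malat1-null members relative to wild-type members, at 18.4 and 77.8 CPM, and Spp1, the osteopontin gene, was 0.09-fold, at 45.6 and 502 CPM. The other beta barcodes had the same 2 differences, with 40.1 CPM in Malat1-null and 160 CPM in wild type for Pdyn and 88.4 and 666 CPM for Spp1. These are values of 1 library per genotype and were not tested.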

How the data were processed

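Per the labels, each library held about 20000 islet cells made with the 10x 3′ kit. The authors' deposited files are unfiltered matrices of raw UMI counts over 32285 genes; the submitters' processing notes name Cell Ranger 2.1.0 and mm10, while the matrix header, per the file headers, names another Cell Ranger release, so the version is not settled. The DMSO libraries were not analysed here. Members, gene lists and tests were chosen with earlier results of these data known, and the lipogenesis list, list medians relative to all genes, 10-bin gradients, thinned states, barcode concentration, promoter search, genotype comparison and 3 of 19 alternatives were added after values were seen. UMIs were summed over members and over other beta barcodes of each library and scaled by TMM (edgeR 4.0.16, R 4.3.3; Python 3.11.15, numpy 2.4.6, scipy 1.17.1, pandas 2.3.3). Ratios have exact conditional 95% intervals; log2 ratios add 0.5 UMIs to each sum. No doublet caller was run. The scripts were tested on simulated data. Named genes were to be up to 12 per direction counted in both libraries, ranked by the smaller change; only 2 and 11 qualified. From each list the rule added the genes counted in both libraries and up to 3 with the highest mean CPM; every other gene named was chosen after its values were seen. Of the 33 gene lists, those with fewer than 3 measured genes have no median. Cells are not replicates, so no p-value is given.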

Additional observations from a re-analysis of the deposited data

Results flagged for a closer look

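For 3 gene lists the members stood on opposite sides of all genes in the 2 libraries by at least 0.05 (log2), and the difference between the libraries was not tested. The nuclear oxidative phosphorylation list had a median relative to all genes of -0.18 in the Malat1-null library and 0.055 in the wild-type library. The amino acid transporters had -0.072 in the Malat1-null library and 0.060 in the wild-type library. The 3 measured Wnt targets and pericentral liver genes had -0.051 in the Malat1-null library and 0.11 in the wild-type library.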

How the results depend on the processing

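No paired analysis was possible because each genotype had 1 library, and for the same reason no replicate could be left out. The share of members (Malat1-null, then wild type) was 3.10% and 23.7% for the top 10%, 14.1% and 46.7% for the top 25%, 15.0% and 15.0% within each library, 11.7% and 21.6% by Slc40a1 alone, 8.0% and 29.0% thinned, and 7.89% and 37.4% without barcodes with 0.1% of UMIs in other cell types' markers. Genes higher in members of both libraries numbered 4 for the top 10%, 1 with others matched on UMIs, 12 under total-UMI scaling, 4 under scaling without hormone, mitochondrial and Malat1 UMIs, 7 with no CPM minimum, 23 at a looser fold minimum and 0 at 2-fold. Lower genes numbered 19 by Slc40a1 alone, 7 without barcodes high in Pdyn, metallothionein or Hspa1a genes, 4 and 5 under those scalings, 3 at 50 CPM, 48 with no minimum, 63 at the looser fold minimum and 2 at 2-fold.

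Total-UMI scaling, which moved the median of all genes to 0.28 in the Malat1-null library, reversed Malat1-null list medians (log2): glutamine 0.11, amino acid transporters 0.21, Wnt 0.23, mature beta-cell function 0.26, granins 0.10, glycolysis 0.20, hypoxia 0.091, heat shock 0.22, ER 0.068, ATF4 0.084, immediate-early 0.19, p53 0.22, cholesterol 0.25, nuclear oxidative phosphorylation 0.095, ribosomal 0.064, splicing 0.26 and leading genes of other states 0.11. Leaving out high states, for the counts and medians here, also dropped some Malat1-null barcodes without any Hspa1a or Hspa1b UMI. Other reversed medians were small. In Malat1-null these were Wnt 0.052 (other cell types' markers), 0.087 (high states left out) and 0.10 (matched UMIs), mature function 0.018 (rule without hormone UMIs) and 0.021 (that scaling), glycolysis 0.058 and p53 0.025 (matched UMIs), hypoxia 0.11 (thinned) and 0.0063 (matched UMIs), immediate-early 0.029 (top 10%), cholesterol 0.031 (Slc40a1 alone), 0.0095 (thinned) and 0.0021 (matched UMIs), splicing 0.027 (scaling without hormone UMIs), and leading genes 0.012 (rule without hormone UMIs), 0.0031 (markers) and 0.074 (50 CPM). In wild type they were Wnt -0.051 (thinned) and -0.059 (high states left out), glycolysis 0.049 (high states left out) and MHC class I -0.035 (Slc40a1 alone). Malat1-null log2 ratios reversed for Hspb1, at 0.13 (top 25%) and 0.045 (within library), for Ctrb1, at 3.86 (top 25%), 3.82 (within library), 0.14 (high states left out) and 0.16 (matched UMIs), and for Fam162a, at 0.079 (matched UMIs). The causes of these changes were not tested. With 108 Malat1-null members, genes near 20 CPM rested on few UMIs.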

Other observations

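Genes of fat synthesis under the control of ChREBP, a list added after values were seen, had median log2 ratios of members over other beta barcodes of 0.01 in the Malat1-null library and 0.26 in the wild-type library over 10 measured genes. Of these, 5 lay above 0 in Malat1-null members and 7 in wild-type members. Acly, which makes the acetyl-CoA used for fatty acids, stood at 2439 CPM, taken without hormone, mitochondrial and Malat1 UMIs, in the highest and 1147 CPM in the lowest of 10 bins by summed Glul and Slc40a1 level of Malat1-null beta barcodes, and at 2448 and 828 CPM in the wild-type ones.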
